A study of Mus musculus with 2 samples.

Results

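Of the 6566 intervals at which LHX6-bound chromatin was enriched in the embryonic upper jaw, 392 (5.97%) flanked a gene, lay away from its start and held no CpG island. An interval was taken when the authors' annotation gave it no CpG island, at least 1 gene, no gene that contained it, and a distance of more than 1000 bp from its summit (the position of highest signal) to every assigned gene start. By the authors' annotation 155 of the 392 (39.5%) were upstream of their genes, 192 (49.0%) were downstream and 45 (11.5%) were upstream of 1 gene and downstream of another. The signal was measured by chromatin immunoprecipitation and sequencing (ChIP-seq) with a rabbit polyclonal antibody against LHX6. Maxillary arches, the facial primordia that form the upper jaw and palate, were pooled from 47 embryos of the outbred wild-type strain CD-1 (CD1) at E11.5. The data were 1 LHX6 library and 1 input library made from the same kind of chromatin without antibody, with no replicates, so no test between conditions could be made and no value carries a replicate error. Confidence intervals are exact 95% intervals (Clopper-Pearson for shares, order statistics for medians), they cover counting error only, and sequencing depth is unknown here. The labelled tissue could not be checked against marker genes, because intervals of binding do not measure expression, and pooled tissue does not show which cells carried the binding.

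LHX6 belongs to the LIM homeodomain family, whose LIM domains bind cofactors and whose homeodomain contacts DNA at sites with the core TAATTA. With its relative LHX8 it acts in the neural crest mesenchyme of the jaws and palate. Regulatory elements of developmental genes lie on either side of the transcribed unit, and sites for other factors, such as the E-boxes (CANNTG) of basic helix-loop-helix proteins including TWIST1 and HAND2, often stand beside homeodomain sites.

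Summits of 2 of the highest upstream and 5 of the highest downstream intervals, and of flanking intervals at genes for LIM homeodomain, WNT and Eph proteins, are shown to let the letters be read beside the signal. Each line holds 200 bases centred on the summit, plus strand of NCBIM37 (mm9). Capitals mark TGATTG or TGATTA, the homeodomain core TAATTA, and the E-boxes CATCTG and CAGCTG on either strand. On the other strand TGATTG is written in these lines as CAATCA. In the same way TGATTA is written there as TAATCA. The E-box CATCTG is written there as CAGATG.
Wwp1 (chr4:19646044-19646243): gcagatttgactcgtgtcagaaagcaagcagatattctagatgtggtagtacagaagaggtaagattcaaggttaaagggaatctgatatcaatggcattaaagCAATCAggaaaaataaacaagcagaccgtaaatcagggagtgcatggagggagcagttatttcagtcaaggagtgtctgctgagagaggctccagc
Lepr (chr4:101379964-101380163): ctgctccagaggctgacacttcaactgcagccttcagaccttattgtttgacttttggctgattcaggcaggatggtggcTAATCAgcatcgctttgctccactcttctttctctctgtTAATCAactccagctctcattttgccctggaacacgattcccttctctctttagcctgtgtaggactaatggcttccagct
1700025E21Rik (chr6:30476892-30477091): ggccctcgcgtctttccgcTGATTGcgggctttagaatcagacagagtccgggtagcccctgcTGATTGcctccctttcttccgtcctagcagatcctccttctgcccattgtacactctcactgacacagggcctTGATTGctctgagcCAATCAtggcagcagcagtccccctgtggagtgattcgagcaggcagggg
Tbx3 (chr5:120137820-120138019): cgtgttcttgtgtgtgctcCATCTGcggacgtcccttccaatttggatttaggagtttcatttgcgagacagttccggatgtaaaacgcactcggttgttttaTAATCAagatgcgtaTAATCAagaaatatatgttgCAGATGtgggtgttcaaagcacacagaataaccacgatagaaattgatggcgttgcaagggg
4632411J06Rik (chr7:120110364-120110563): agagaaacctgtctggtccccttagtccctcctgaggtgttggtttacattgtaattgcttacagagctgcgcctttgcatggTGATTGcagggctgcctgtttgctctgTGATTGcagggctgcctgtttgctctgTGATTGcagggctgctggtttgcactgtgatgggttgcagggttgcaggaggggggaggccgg
Fzd2 and 2810433D01Rik (chr11:102472412-102472611): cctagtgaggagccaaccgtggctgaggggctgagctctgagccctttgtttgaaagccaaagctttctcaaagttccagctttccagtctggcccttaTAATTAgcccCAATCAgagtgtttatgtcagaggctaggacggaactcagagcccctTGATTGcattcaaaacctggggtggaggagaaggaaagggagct
Frzb (chr2:80250428-80250627): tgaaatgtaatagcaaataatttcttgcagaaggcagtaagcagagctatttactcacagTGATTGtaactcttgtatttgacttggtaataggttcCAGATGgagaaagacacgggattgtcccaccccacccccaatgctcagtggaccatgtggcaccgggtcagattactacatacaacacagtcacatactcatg
Lhx8 (chr3:153995196-153995395): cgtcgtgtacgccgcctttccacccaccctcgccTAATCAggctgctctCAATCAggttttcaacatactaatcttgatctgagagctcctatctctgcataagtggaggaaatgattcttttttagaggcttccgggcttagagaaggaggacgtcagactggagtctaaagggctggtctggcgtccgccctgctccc
Lhx6 and Rbm18 (chr2:35964284-35964483): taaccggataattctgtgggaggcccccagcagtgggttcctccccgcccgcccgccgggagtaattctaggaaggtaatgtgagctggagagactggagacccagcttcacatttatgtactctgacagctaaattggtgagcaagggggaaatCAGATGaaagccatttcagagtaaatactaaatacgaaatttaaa
Epha4 (chr1:77357996-77358195): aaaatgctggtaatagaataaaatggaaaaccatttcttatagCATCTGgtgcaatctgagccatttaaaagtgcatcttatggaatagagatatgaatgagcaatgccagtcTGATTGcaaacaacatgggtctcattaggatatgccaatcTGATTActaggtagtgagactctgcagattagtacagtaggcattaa

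The first 2 lines are upstream intervals, the next 5 are downstream intervals, and 9 of the 10 windows hold at least 1 TGATTG or TGATTA. These windows were picked by height or by gene. The share was 56.1% of all gene-flanking summits and 46.6% of all LHX6 summits. The window downstream of 1700025E21Rik (now named Ssmem1) held 4 TGATTG sites, 44, 73 and 14 bp apart. At 4632411J06Rik (now named Rassf10) 3 TGATTG sites on the same strand stood 27 bp apart inside a short repeated stretch. In the Fzd2 window a TAATTA lay 2 bp from the summit, with 1 TGATTG 12 bp and another 59 bp from it. The exception was the interval upstream of Lhx6 itself, which is downstream of Rbm18 and held a single CATCTG, 58 bp from its summit.

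Among the highest upstream intervals were those of Wwp1, an E3 ubiquitin ligase, with a height of 97 at 10 kb from the start, and of Lepr, the leptin receptor, with a height of 82 at 9.98 kb. Height is the authors' highest density of 150 bp fragments, given throughout in fragments over a position, and no scaling is stated. Gria1, a subunit of AMPA-type glutamate receptors, had an upstream interval of height 73 at 7.19 kb, and Pard6g, a cell polarity protein, had one of height 72 at 6.41 kb. Also among the 8 highest were 2810046M22Rik (now named Wdr86, height 64, 2.67 kb), Bbox1, which encodes an enzyme of carnitine synthesis (height 57, 7.81 kb), and LOC100039567 (height 52, 7.04 kb). At Bbox1 the newer GENCODE M1 annotation placed the summit in an intron of the gene rather than upstream of it. The same annotation placed the Wwp1 summit in an intron of Gm12354. Each of the 7 summits named here had at least 1 TGATTG or TGATTA within 100 bp, while none held TAATTA. Of all upstream intervals of height 28 or more, 61.2% held TGATTG or TGATTA and 14.3% held TAATTA.

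The highest downstream interval followed 1700025E21Rik (height 81, 6.74 kb beyond the gene's end). Tbx3, a T-box transcriptional repressor that acts in limb and mammary gland development, had a downstream interval of height 75 (chr5:120137002-120138406). That interval lay 17.2 kb from the gene start and 3.19 kb beyond the gene's end, and GENCODE M1 placed its summit in an intron of Gm16065. A lower one of height 15 lay 0.275 kb beyond the end of Tbx3. The interval at 4632411J06Rik reached 74, at 13.0 kb from the start of that gene. Among genes that GENCODE M1 gives as protein-coding the nearest was Tead1, 60.1 kb away, which encodes a transcription factor of the Hippo pathway. Tmem107, a protein of the ciliary transition zone, had an interval of height 72 whose summit fell within the small nucleolar RNA gene Snord118, 0.245 kb past Tmem107. Between Fzd2, a WNT receptor, and 2810433D01Rik lay an interval of height 70, 3.14 kb beyond Fzd2. Frzb, a secreted antagonist of WNT ligands, had 3 downstream intervals with heights of 68, 44 and 42, at 1.6, 5.12 and 7.04 kb beyond its end, and each held 1 TGATTG. The other two of the 8 highest were named for gene models: EG667418 (height 60), where GENCODE places the summit in an intron of Phldb2, and EG624446 (height 59), where it lies in an intron of 1700112D23Rik. The EG667418 summit was the only one of these 8 without TGATTG or TGATTA, and it held 3 E-box hexamers. Of all downstream intervals of height 28 or more, 82.8% held TGATTG or TGATTA. The highest interval placed on both sides reached 98 and lay near Ywhaq, which encodes a 14-3-3 protein, and LOC100043407.

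Upstream and downstream intervals overlapped in signal. The median height was 23 upstream (21 to 25, range 13 to 104), 21 downstream (19 to 23, range 11 to 81) and 20 on both sides (18 to 22, range 12 to 98). The confidence intervals of the medians overlapped, and the ranges covered each other over most of their span. The mean density over the interval had a median of 10.1 fragments upstream (9.71 to 10.5) and 9.81 downstream (9.35 to 10.2). Median length was 764 bp upstream (730 to 796) and 806 bp downstream (763 to 839). A height of at least 50 was reached by 9 upstream intervals (5.81%), 14 downstream intervals (7.29%) and 1 on both sides. Together these were 24 of 392 (6.12%, 3.96 to 8.97), against 4.66% of all LHX6 intervals, and the confidence interval includes that background.

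Gene-flanking intervals held more of low height than intervals inside genes or with no gene, but not more than those at gene starts, all without a CpG island. Below a height of 18, the lower quartile of all LHX6 intervals, lay 103 of the 392 (26.3%, 22.0 to 30.9). The share was 18.7% (16.7 to 20.8) of the 1404 intervals inside genes and 17.4% (15.7 to 19.2) of the 1864 with no assigned gene, whose confidence intervals did not reach that of the gene-flanking set. It was 33.0% (26.1 to 40.4) of the 176 intervals at gene starts and 21.1% (20.1 to 22.1) of all LHX6 intervals, and both of these confidence intervals met that of the gene-flanking set. At the other end, 29.8% of gene-flanking intervals reached 28, the upper quartile, compared with 33.3% inside genes and 34.2% with no gene, and here the confidence intervals overlapped. None of the 392 overlapped any of the 6 intervals called in the input library.

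**Figure D1:**
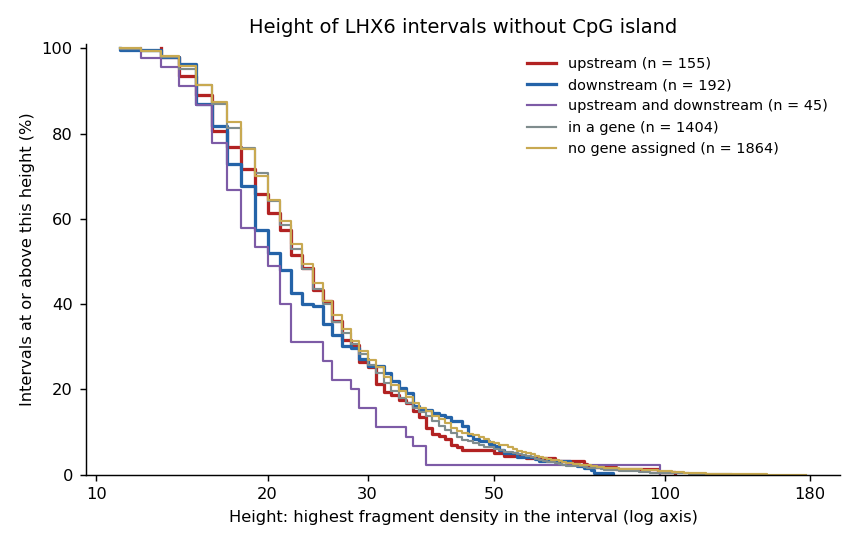
Share of intervals at or above each height (highest fragment density, log axis) for upstream, downstream and both-sided intervals without a CpG island, and for intervals in a gene or with no assigned gene. The upstream and downstream curves cross, with medians of 23 and 21, and both-sided intervals lie lowest over most of the range apart from 1 interval of height 98.

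The flanking distances were bounded by the authors' annotation, which reached about 10 kb on either side of a gene. The farthest upstream summit was 10318 bp from its gene start and the nearest 1003 bp. The start rule shaped the sides unequally: it removed 66 intervals with upstream genes alone and 28 with genes on both sides, but 0 with downstream genes alone, since a downstream summit already has the gene between itself and the start. For the same reason the median distance to the nearest assigned start was 5139 bp upstream (4208 to 5925) but 20730 bp downstream. Near the limit of 1000 bp, the 4 intervals less than 100 bp beyond it and the 2 left out by less than 100 bp both had a median height of 20.

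Measured from the nearer gene edge, the 2 sides had close medians. Of 493 gene assignments, 394 (79.9%) matched a GENCODE gene, and 346 of these had a start within 2000 bp of the deposited one and were used. The median upstream summit lay 4824 bp before the start (148 assignments), and the median downstream summit lay 4485 bp beyond the end (198 assignments). Between 1 and 10 kb from that edge there were 143 upstream and 157 downstream assignments, so most of the excess downstream came from the first kb past the gene end, where 24 summits lay and where the rule allows no upstream summit, and from those beyond 10 kb or inside the GENCODE gene. The fullest upstream bin was the nearest, with 29 of 148 (19.6%) at 1 to 2 kb against 9 to 19 in each further kb up to 10 kb. In 8 downstream assignments the summit lay inside the gene as GENCODE gives it.

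**Figure D2:**
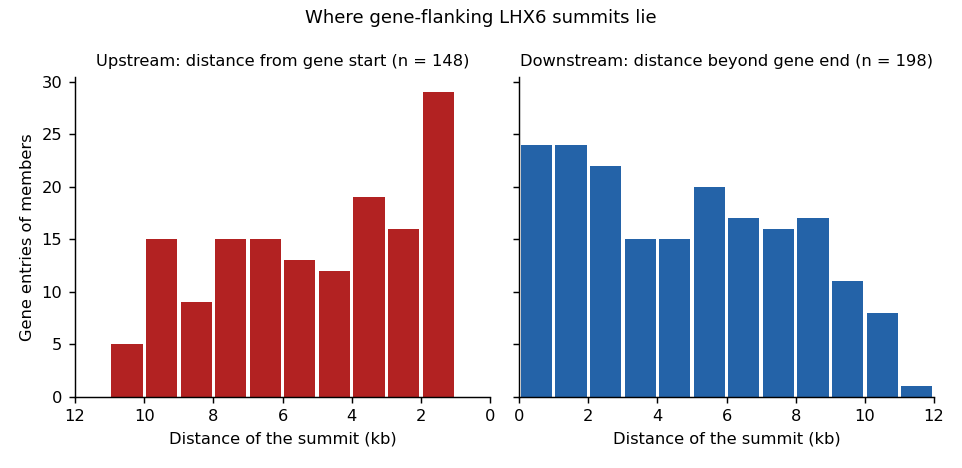
Number of gene assignments by distance of the LHX6 summit, in bins of 1 kb: before the gene start for 148 upstream assignments (left) and beyond the gene end for 198 downstream ones (right). The upstream bin below 1 kb is empty by the selection rule, the nearest allowed bin holds 29, and both sides end near 10 kb at the limit of the authors' annotation.

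By GENCODE M1, 318 of the 392 summits (81.1%) were intergenic, 53 lay in introns, 10 in untranslated exons, 2 in coding exons and 9 in exons of non-coding genes. A protein-coding gene contained the summit in 46 cases, 23 of them upstream and 19 downstream by the authors' annotation. Within 1 kb of a GENCODE start lay 14 upstream, 4 downstream and 8 both-sided summits, which the authors' annotation had placed farther from its own starts. At the other extreme, 70 summits (17.9%) were over 10 kb from any protein-coding gene of GENCODE. The genes assigned to 92 of the 392 had only placeholder names of predicted models or clones, so their roles are not described.

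The letters at the summits set gene-flanking intervals apart from the sequence around them. These letters, like the E-boxes and the homeodomain core counted below, were chosen with earlier results of these data known. Their excess at summits over flanks is therefore a description and not an independent finding. TGATTG or TGATTA (both strands, 200 bp at the summit) was present at 78 of 155 upstream summits (50.3%, 42.2 to 58.4) and at 119 of 192 downstream summits (62.0%, 54.7 to 68.9). In windows 2 kb to the left and right the same letters were found in 13.2% and 13.8%, so both sides stood well above their own flanks. The upstream and downstream confidence intervals overlapped and the difference between them was not tested. In windows at the middle of the interval instead of the summit the shares were nearly equal, 50.3% upstream and 51% downstream. Both-sided summits held the letters in 51.1% and all gene-flanking summits in 56.1% (51.1 to 61.1), 4.23 times the share in their flanks. The background was 46.6% of all LHX6 summits, which include those in CpG islands, but 63.7% (61.2 to 66.3) inside genes and 64.3% (62.1 to 66.5) with no gene, both without CpG island. At the summit, downstream intervals were near the 2 latter classes, and the upstream confidence interval lay below both of theirs.

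At the summit each of these hexamers was found less often upstream than downstream, with overlapping confidence intervals. TGATTG was present at 32.3% of upstream and 39.6% of downstream summits, and TGATTA at 25.8% and 32.8%. At least 2 such sites stood at 24 upstream summits (15.5%, 10.2 to 22.2) and at 51 downstream summits (26.6%, 20.5 to 33.4), with at most 4 at any summit. The site nearest to the summit was within 50 bp in 62 upstream intervals (40%) and 97 downstream intervals (50.5%), and its median distance was 56 bp and 34 bp. TGATTGAT, known as a composite site of PBX and HOX proteins, was found at 9 gene-flanking summits (2.30%) and in 2 flanking windows (0.255%), against 2.04% of all LHX6 summits.

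**Figure D3:**
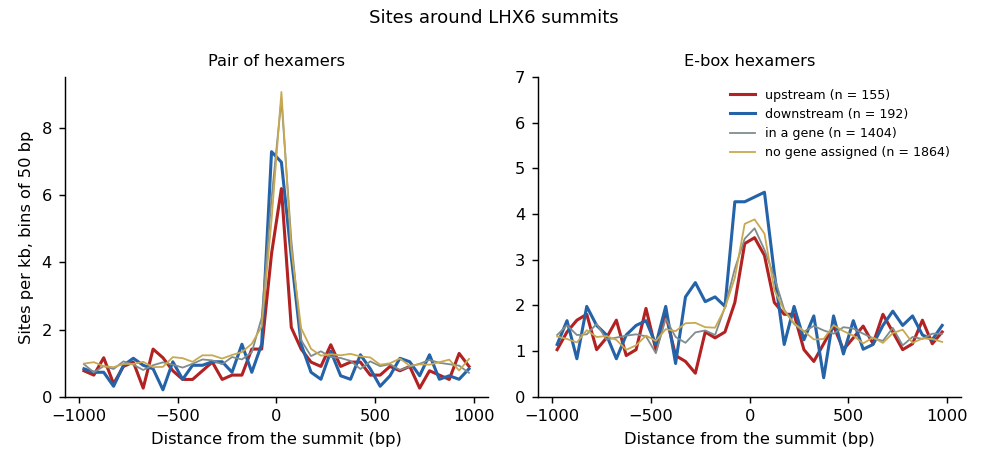
Density of sites per kb in bins of 50 bp around the summit, for the pair TGATTG or TGATTA (left) and the E-box hexamers CATCTG or CAGCTG (right), in 4 classes of intervals without a CpG island. Every class is highest within 100 bp of the summit in both panels, with the downstream curve above the upstream curve there.

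E-boxes followed the same order. CATCTG or CAGCTG was present at 63 upstream summits (40.6%, 32.8 to 48.8) and 95 downstream summits (49.5%, 42.2 to 56.8), and flanks held it in 21.0% and 27.1%. Since the flanks also differed, summits exceeded their flanks 1.94 times upstream and 1.83 times downstream. Both-sided summits held it in 31.1%, and all gene-flanking summits in 43.9% (38.9 to 48.9), close to 44.9% inside genes and 47.9% with no gene, against 33.7% of all LHX6 summits. An E-box stood at 40.9% of gene-flanking summits with TGATTG or TGATTA and at 47.7% of those without, with overlapping confidence intervals. TAATTA, the LIM homeodomain core, was rarer, at 11.6% upstream, 13.5% downstream and 6.67% on both sides. Of all gene-flanking summits 12% (8.94 to 15.6) held it, against 4.08% of their flanks and 8.71% of all LHX6 summits. Without a CpG island it stood at 14.9% (13.1 to 16.9) inside genes and 13.5% (11.9 to 15.1) with no gene, so gene-flanking summits were not above these classes. None of the 5 hexamers was found at 36 upstream summits (23.2%), 27 downstream summits (14.1%) and 17 both-sided summits (37.8%).

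**Figure D4:**
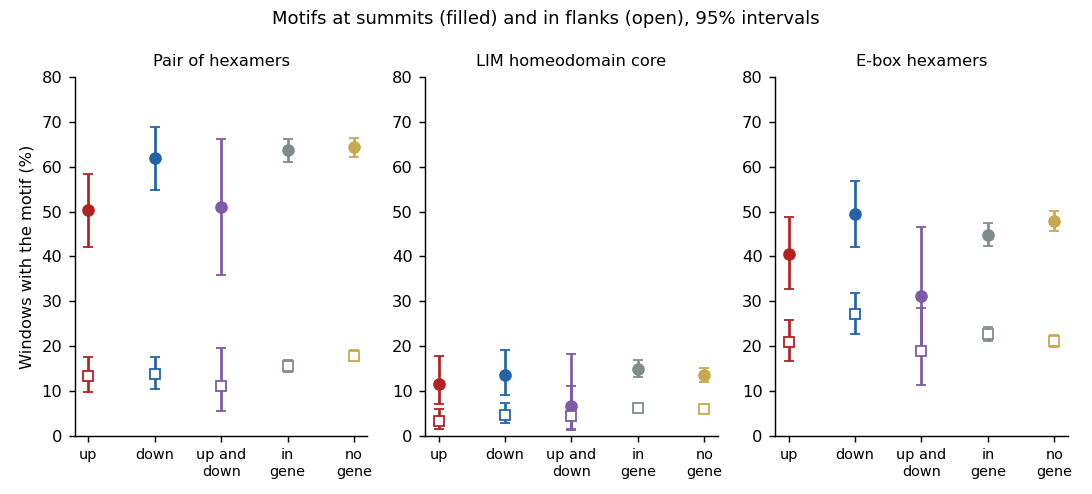
Share of 200 bp windows with TGATTG or TGATTA (left), TAATTA (middle) and CATCTG or CAGCTG (right), at summits (filled circles) and 2 kb away (open squares), with exact 95% intervals. The share at summits is above that in flanks in each class, but for both-sided intervals the confidence intervals overlap in the middle and right panels. For the left panel the upstream share of 50.3% is the lowest of the 5 classes, with both-sided intervals at 51.1%.

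A further 6 motifs were counted by the same rule. GGAATG, the core of sites for TEAD factors, was present at 15.8% of gene-flanking summits and 7.53% of flanks, with 14.2% upstream and 15.1% downstream. This compares with 11.9% of all LHX6 summits, but 14.8% inside genes and 16.1% with no gene, both without CpG island. AGATAA, the core of GATA sites, was rarer at summits than in flanks (5.36% and 10.2%), as it was over all LHX6 intervals (5.03% and 11.9%). TGACAG, bound by MEIS proteins, was equally frequent in both (12%). TGANTCA of AP-1 (6.89% and 5.10%), ACAATG of SOX proteins (7.91% and 9.69%) and TGTTTAC of forkhead proteins (4.85% and 3.06%) had overlapping confidence intervals. In all LHX6 summits these 4 stood at 13.5%, 4.92%, 6.55% and 4.16%. By side, ACAATG stood at 5.16% (2.25 to 9.92) of upstream summits and 13.5% (9.94 to 17.9) of their flanks. Those confidence intervals just failed to meet. Downstream the order was reversed, at 10.9% (6.90 to 16.2) and 6.25% (4.05 to 9.16), with overlapping confidence intervals. The difference between the sides was not tested.

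Higher intervals held TGATTG or TGATTA more often on both sides of genes. Upstream the share went from 30.6% below a height of 18 through 46.7% and 57.5% to 61.2% (46.2 to 74.8) at 28 or more. Downstream it went from 44.2% through 54.2% and 64.7% to 82.8% (70.6 to 91.4). The downstream share was above the upstream share in each of the 4 classes of height, but within each class the confidence intervals overlapped. Intervals in genes ran from 46.9% to 77.8% and those with no gene from 44.8% to 77.4%, and within each class of height the upstream share was below both, with overlapping confidence intervals. In the highest class E-boxes were also more frequent downstream (60.3%, 46.6 to 73.0) than upstream (44.9%, 30.7 to 59.8).

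**Figure D5:**
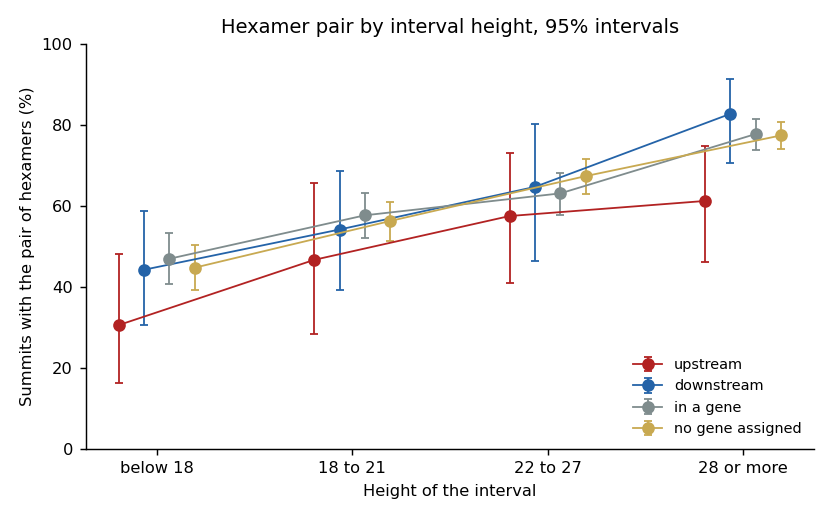
Share of summits with TGATTG or TGATTA by the height of the interval (4 classes cut at the quartiles of all LHX6 intervals), with exact 95% intervals. The share is higher in each next class on both sides, from 30.6% to 61.2% upstream and from 44.2% to 82.8% downstream.

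Upstream, no steady order of these letters with the distance from a gene was seen. Downstream, the share was higher in each next class of distance past the gene end, with overlapping confidence intervals. Upstream summits within 1 kb of a GENCODE start held TGATTG or TGATTA in 4 of 14 cases (28.6%, 8.39 to 58.1), downstream ones in 3 of 4, and upstream summits farther away in 74 of 141 (52.5%, 43.9 to 60.9). The share was 61.7% (54.3 to 68.7) of the 188 downstream summits over 1 kb from any start. By distance to the authors' nearest start the upstream share was 44.4% at 1 to 2 kb, 64.6% (49.5 to 77.8) at 2 to 5 kb and 43.8% (32.7 to 55.3) beyond. Downstream it was 41.0% (25.6 to 57.9) of 39 summits up to 2 kb past the gene end and 57.6% of 33 at 2 to 5 kb. It was 63.2% (49.3 to 75.6) of 57 beyond, and the confidence intervals overlapped. These classes do not hold all 192 downstream summits. GC content of the 200 bp at the summit was close on both sides, with a median of 48% upstream (46.5 to 51) and 47% downstream (46 to 48.5), and it was 45.5% inside genes and 44.5% with no gene.

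Gene-flanking intervals stood near another LHX6 interval more often than intervals inside genes or with no gene. For 105 of the 392 (26.8%, 22.5 to 31.5) a further interval lay within 10 kb, with 27.7% upstream, 22.4% downstream and 42.2% on both sides. Inside genes this share was 16.5% (14.5 to 18.5) and with no gene 11.6% (10.2 to 13.2). It was 33.9% (26.8 to 41.7) for flanking intervals with a CpG island, 20.5% (14.8 to 27.2) for those at gene starts without one, and 16.1% of all LHX6 intervals. The classes differ by construction in how close a gene start can be, and the part of this in the shares was not tested. Of the 463 distinct genes flanked, 437 had 1 gene-flanking interval, 22 had 2 and 4 had 3, among them Frzb, Lhx8 and Gm829.

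The flanked genes carried further LHX6 intervals at or within them more often than genes at large. Among the 379 flanked genes found in GENCODE by symbol, 120 (31.7%, 27.0 to 36.6) also had an interval at the start or in the gene, compared with 10.1% of all GENCODE symbols. Restricted to protein-coding genes the shares were 33.0% and 15.1%. Counting only further intervals without a CpG island lowered both shares, to 15.6% (12.1 to 19.6) of the flanked symbols and 3.13% of all, and to 16.1% and 4.68% of protein-coding ones. Genes flanked upstream (28.0%) and downstream (29.7%) had overlapping confidence intervals. Fzd2 had an interval of height 35 at its start and 20 in the gene, both below the 70 of its downstream interval, and at Tbx3 the 6 intervals that did not qualify had heights of 14 to 26. The 3 Frzb intervals were the only ones assigned to that gene.

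LHX6 and LHX8 genes carried flanking intervals themselves. Lhx6 had an interval of height 28 at 3.46 kb upstream (chr2:35963964-35964927), just above its interval at the start (height 27). Lhx8 had 3 upstream intervals, with heights of 26, 16 and 14 at 1.77, 4.33 and 5.09 kb, and only the first of these held TGATTG or TGATTA. They were 2 of the 21 LIM homeodomain and cofactor genes listed (9.52%, 1.17 to 30.4). For comparison, 1.12% of all GENCODE symbols and 1.6% of the protein-coding ones had a gene-flanking interval without CpG island on either side. The confidence interval of the list includes the share of protein-coding symbols.

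Transcription factors of the facial mesenchyme were flanked in 12 of 72 cases (16.7%, 8.92 to 27.3), 7 with an upstream and 7 with a downstream interval, against the background of 1.6% of protein-coding genes. The list and the intervals were both chosen with earlier results of these data known, so the count is a description. Beside Tbx3, the list included Prrx2, a homeobox gene of craniofacial mesenchyme (height 42, 8.61 kb upstream), where GENCODE places the summit in a Prrx2 intron and where the letters held both TGATTG and TAATTA. Nr2f1, an orphan nuclear receptor, had 2 upstream intervals, both of height 29, at 1.77 and 2.72 kb. Msx1, a homeobox gene required for palate and teeth, had one upstream (height 23, 4.21 kb) and one downstream (height 17). Hand2, a basic helix-loop-helix factor of the lower jaw, had a downstream interval of height 22. The genes Gsc, Nr2f2, Dlx2, Twist1, Osr1 and Tbx15, had none above 18, so 7 of the 12 genes had no flanking interval above 22, the median height of all LHX6 intervals.

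Of 64 WNT pathway genes 7 were flanked (10.9%, 4.51 to 21.2), 6 of them downstream and Dkk2 upstream, against 1.6% of protein-coding genes. This list too was chosen with earlier results of these data known, so the count is a description. Over all flanked genes 259 had a downstream and 211 an upstream interval, and the split of so few genes was not tested. Beside Frzb and Fzd2, the ligand gene Wnt10a had downstream intervals of height 41 and 18, at 4.06 and 2.51 kb beyond its end. Lrp6, a WNT co-receptor, had one of height 29, which was 126.8 kb from its start and nearer to Bcl2l14. Sfrp2, a secreted antagonist, had one of height 23 with 2 TGATTA sites, and Lef1, the transcription factor at the end of the pathway, had 2 with heights of 21 and 13. Dkk2, another secreted antagonist, had an interval of height 27 at 7.10 kb upstream with 2 TGATTG sites.

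Of 38 extracellular matrix genes 6 were flanked (15.8%, 6.02 to 31.3), 4 upstream and 2 downstream, against 1.6% of protein-coding genes. The same limit on how the list was chosen holds here, and this count is also a description. Col4a1, a basement membrane collagen, had a downstream interval of height 36, and the fibrillar collagen gene Col1a1 had an upstream one of height 29 at 7.25 kb. Col6a1 reached 26 and Mmp14, a membrane-bound matrix protease, reached 23, while Sparc and Lum were at 17 and 14. Among 45 guidance genes 3 were flanked (6.67%, 1.40 to 18.3), and that confidence interval includes the 1.6%. Epha4, an ephrin receptor, had a height of 51 at 5.66 kb beyond its end. Plxna1, a semaphorin receptor, had 46 at 0.870 kb beyond its end, and Sema6a had 16.

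Other signalling lists, cell cycle regulators and housekeeping genes had 1 or 2 flanked members each. Every one of these shares had a confidence interval that includes the background of 1.6% of protein-coding genes. Ptch1, the hedgehog receptor, was the only one of 15 (6.67%, height 22), with its summit in a Ptch1 intron by GENCODE. Of 42 BMP and TGF-beta genes 2 were flanked (4.76%), both inhibitors of basic helix-loop-helix factors. They were Id3 (height 31, 3.29 kb upstream) and Id2 (height 25, 3.62 kb from its start on the downstream side). Pdgfra, a growth factor receptor of the mesenchyme, was the only one of 34 FGF and PDGF genes (2.94%, height 14). Ccne1 (height 36) and Ccnd2 (height 16) were 2 of 26 cell cycle regulators (7.69%). Actb (height 16) was among the 2 of 20 housekeeping genes flanked. That share of 10% (1.23 to 31.7) has a confidence interval that overlaps those of the facial mesenchyme, WNT and extracellular matrix lists.

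In each list of other tissues, 0 or 1 gene was flanked. Epithelium had Krt8 (1 of 22, height 15), head muscle Chrna1 (1 of 14, height 37, 0.280 kb past its end), endothelium Fli1 (1 of 18, height 44, 1.82 kb upstream) and neurons and glia Neurog1 (1 of 21, height 15). None of 17 blood genes and none of 22 liver genes had a gene-flanking interval, which allows shares of up to 19.5% and 15.4% at these list sizes. The counts of 0 or 1 gene in each of these lists do not separate them from the background of 1.6% or, by their confidence intervals, from the facial mesenchyme list.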

How the data were processed

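Binding of LHX6 was measured in 1 ChIP-seq library, beside 1 library of input, from maxillary arches pooled at E11.5, without replicates. BWA was used for alignment to mm9, and tags were lengthened in silico to 150 bp, per the labels' protocols; MACS is named without a version per the submitters' processing notes. No source used here states the calling threshold, the read totals or any scaling, and an H3K27ac experiment in the labels was not analysed here. The deposited table gives the authors' signal for each interval as a maximum (height) and a mean over bins of 32 bp, with CpG islands, assigned genes, their side and the distance from gene start to summit.

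Intervals were selected by those annotations. The members, motifs and gene lists were chosen with earlier results of these data known. No test was possible with 1 library, so shares and medians carry exact 95% intervals. Letters were counted on both strands of NCBIM37 in 200 bp at the summit and in windows 2 kb to each side, and no interval passed a chromosome end. GENCODE M1 gave gene ends, starts and gene parts, and a RefSeq gene table gave current symbols, through which 379 of 463 flanked genes (81.9%) were found. Sequences were read from the NCBIM37 genome; the 15 intervals on chromosome 18 are shown without sequence. Named genes were those of the 8 highest upstream and downstream intervals, genes with 3 or more, up to 4 per list with the highest intervals and all LIM homeodomain genes; other genes were named after their values were seen, and 2 genes that the rule takes are not reported here. Calculations, tested on simulated data, used Python 3.11.15, numpy 2.4.6, scipy 1.17.1, pandas 2.3.3, pysam 0.24.0 and matplotlib 3.10.9.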

Additional observations from a re-analysis of the deposited data

How the results depend on the processing

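Over 12 alternatives, 131 of 165 recomputed values stayed within their confidence interval or within 1.5 times the count, and 34 moved. Of those that stayed, 18 came from leaving out overlaps with input, which could change nothing because 0 intervals overlapped. At a stricter threshold (height at or above the median) 199 intervals stayed, 89 upstream and 92 downstream, with median heights of 29 and 32.5, the letters TGATTG or TGATTA at 59.6% and 76.1%, 8.33% of facial mesenchyme factors and 0.536% of all symbols flanked, and 19.5% of flanked genes with a further interval. With starts over 2000 bp away the upstream median distance was 5954 bp and 0.959% of symbols were flanked. With CpG islands allowed there were 234 upstream intervals, with a median length of 818 bp and a median distance of 4082 bp; median GC was 52.5% upstream and 49% downstream, TGATTG or TGATTA stood at 41% and 52.5%, and 1.72% of symbols were flanked. In windows of 100 bp the shares with TGATTG or TGATTA, with the core TAATTA and with an E-box were 36.1%, 5.81% and 27.1% upstream and 50%, 8.85% and 29.2% downstream. In windows of 400 bp they were 59.4%, 19.4% and 58.1% upstream, and TAATTA and E-boxes stood at 19.8% and 66.1% downstream. Windows at the middle of the interval gave TGATTG or TGATTA at 50.3% upstream and 51% downstream. Among protein-coding symbols 1.6% were flanked, and counting only further intervals without CpG island 14% of flanked genes had one. Fewer intervals and greater heights at the stricter threshold, more intervals with CpG islands allowed, and lower or higher shares in smaller or larger windows follow from how these alternatives are built; for the other values the cause was not tested. The upstream share with TGATTG or TGATTA was below the downstream share in the 10 alternatives that recompute it, by the least at the middle of the interval. Among these, leaving out input overlaps changed nothing. All of them draw on intervals of the same library, so they are not independent repeats. Leaving out members within 1 kb of a GENCODE start was chosen after seeing the data and moved 0 of 21 values.

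No paired analysis was possible because the study has 1 library per group and no result comes from a test. Without replicates the spread between animals is unknown, without read totals the heights cannot be scaled, and a gene assigned by distance need not be the gene an element acts on. The authors' limit of about 10 kb ends both flanks, so distances say nothing of elements farther away.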

Other observations

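The base after TGATTG was C at 81 of 195 sites at summits (41.5%, 34.5 to 48.8) and at 14 of 59 sites in flanks (23.7%, 13.6 to 36.6). After TGATTA it was G at 48 of 138 sites (34.8%, 26.9 to 43.4) and at 9 of 55 (16.4%, 7.77 to 28.8). The confidence intervals overlapped for TGATTG and for TGATTA. The C after TGATTG stood at 43.5% of upstream and 43.2% of downstream sites at summits. In flanks it stood at 7 of 19 upstream sites (36.8%, 16.3 to 61.6) and 6 of 36 downstream sites (16.7%, 6.37 to 32.8), with overlapping confidence intervals. Inside genes it stood at 34.1% of sites at summits (30.8 to 37.6) and 21.0% in flanks (15.9 to 26.8). With no gene the shares were 38.3% (35.3 to 41.3) and 23.6% (19.5 to 28.0), so the gap was not particular to gene-flanking intervals. The next base was looked at after the data had been seen, sites of 1 summit are not independent, and no test was made.

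Intervals whose assigned genes all have placeholder names held an E-box more often than the others, 53 of 92 (57.6%, 46.9 to 67.9) against 119 of 300 (39.7%, 34.1 to 45.4), while TGATTG or TGATTA was close in both (58.7% and 55.3%). Members over 10 kb from any protein-coding gene had an E-box in 52.9% (40.6 to 64.9) and a median height of 23 (21 to 26). These splits were also made after the data had been seen.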
